A study of Danio rerio with 12 samples.

Results

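Chromatin accessibility after TDCIPP was compared with its own solvent controls over every region of the deposited comparison, 35040 consensus regions out of 80059 in the tables of the whole series. No further choice by value was made among these regions. The consensus regions are themselves peaks of reads, so their listing already depends on reads. How this bears on the folds of regions of low level was not tested. They were described by their level in the controls, their width, their distance to the next region and the kind of sequence they lie on. TDCIPP is a chlorinated organophosphate ester used as a flame retardant. Wild type zebrafish eggs of AB/Tuebingen parents received 3.12 µM TDCIPP or, as control, 0.1% DMSO right after spawning, and whole embryos were taken at 6 hours post fertilization. Each group had 3 libraries made from nuclei of such embryos. Whether the libraries of a group came from separate clutches is not in the labels, so the authors' p-values rest on a spread between libraries that may be technical. The comparison asks where accessibility differed after exposure.

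In ATAC-seq the Tn5 transposase inserts adapters where DNA is free of tightly packed nucleosomes, so read counts are high at active promoters and enhancers and low in compacted chromatin. At this stage the zebrafish embryo has switched on its own genome and is beginning gastrulation. Many copies of repeats and of recently duplicated genes are held in compacted chromatin, and the long arm of zebrafish chromosome 4 is known for its density of both. The series title names H2A.Z, a variant of histone H2A that is common in nucleosomes beside active promoters, and the loss of silencing at repeats.

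For each region the authors' deposited table gives each group a level, the log2 of its normalized reads averaged over 3 libraries, and the log2 fold of TDCIPP over DMSO. A fold above 0 means more reads with TDCIPP. Values of single libraries are not part of the table, so no SD and no range over libraries can be given for any region, and the spread between libraries enters only through the authors' adjusted p. A region was called when that adjusted p was under 0.05. Embryos were assayed whole, so fewer cells with a region open and less opening per cell cannot be told apart. The labelled tissue could not be checked against marker genes, because the regions carry no gene names and no annotation of their build (GRCz11) was used here.

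Summed over regions, DMSO libraries had on average 7910862 normalized reads and TDCIPP libraries 7753700. The median region had 83.3 normalized reads with DMSO and 84.4 with TDCIPP. Levels of the 2 groups were close across regions, with Pearson r = 0.983 (a description over 35040 regions, which share the same libraries). The median fold over all regions was 0.01, with quartiles of -0.14 and 0.16, in the authors' deposited table. Folds within 0.25 of 0 made up 71.3% of the regions. In the authors' deposited table, 448 of 35040 regions were called (1.28%), 127 higher with TDCIPP (0.362%) and 321 lower (0.916%). At an adjusted p under 0.01 the share called was 0.551% (0.0999% higher, 0.451% lower), and at 0.1 it was 2% (0.696% higher, 1.3% lower). With an absolute fold of at least 1 it was 0.0285% (0.02% higher, 0.00856% lower), and with the adjustment recomputed over all regions 1.17% (0.334% higher, 0.836% lower). At an unadjusted p under 0.05 it was 9.93% (4.77% higher, 5.16% lower) in the authors' deposited table. Under the authors' scaling of libraries the folds thus centred near 0, and calls were a small part of the regions. How that scaling was done is unknown, and scaling can itself set read totals and the centre of the folds. A shift in accessibility common to all regions was therefore not tested. A constant offset could turn the sign of a median close to 0, here and below, but would leave differences between class medians unchanged. Numbers of calls, their split into rises and falls, and shares of folds above 0 could change with such an offset, also between classes. Called falls had a median of 523 normalized reads with DMSO and 372 with TDCIPP, and called rises had 100.4 and 165 reads. The 321 falls together held 6.67% of all DMSO reads and the 127 rises 0.368%.

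The change differed with the control level. Regions were put into 10 classes of 3504 regions by their DMSO level, class 1 being the lowest (level 3.13 to 5.09) and class 10 the highest (8.43 to 17.92). The median fold went from 0.18 in class 1 through 0.08 in class 2 and 0.01 in class 5 to -0.04 in class 9 and -0.08 in class 10 of the authors' deposited table. In class 1, 72.4% of regions had a fold above 0, against 31.9% in class 10. By this division most regions of the lowest class had more reads with TDCIPP and most of the highest class fewer. No test of a difference between classes was made, because regions are not replicates and share their libraries.

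The DMSO level is itself part of the fold, so a region whose DMSO value was low by chance has a raised fold. With classes by the mean level of both groups, the median fold went from 0.07 in the lowest class to -0.06 in the highest, a difference of -0.13 in place of -0.26. With classes by the TDCIPP level, the lowest class had -0.04, with 44.8% of its regions above 0, and the highest -0.05, a difference of -0.01, and classes 2 to 6 lay between 0.03 and 0.04. A level that shares no library with the fold came from the DMSO controls of the decitabine experiment of the same series (DAC in the sample titles, 5AzaC in the table header), at 24956 regions present in both tables. By that level, the median TDCIPP fold was 0.02 in the lowest class and -0.06 in the highest, a difference of -0.08. Over the same shared regions it was 0.14 and -0.09 by the own DMSO level, and 0.065 and -0.07 by the mean level. The 2 sets of controls ranked these regions alike, with Pearson r = 0.787 and Spearman rho = 0.759 over the 24956 regions. The highest class thus had a median below 0 under each of these levels. The lowest class ranged from 0.18 by the own DMSO level to -0.04 by the TDCIPP level. Over the same 24956 regions, the correlation of the fold with the own DMSO level was r = -0.25, with the mean level r = -0.17 and with the other controls' level r = -0.0821.

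**Figure D1:**
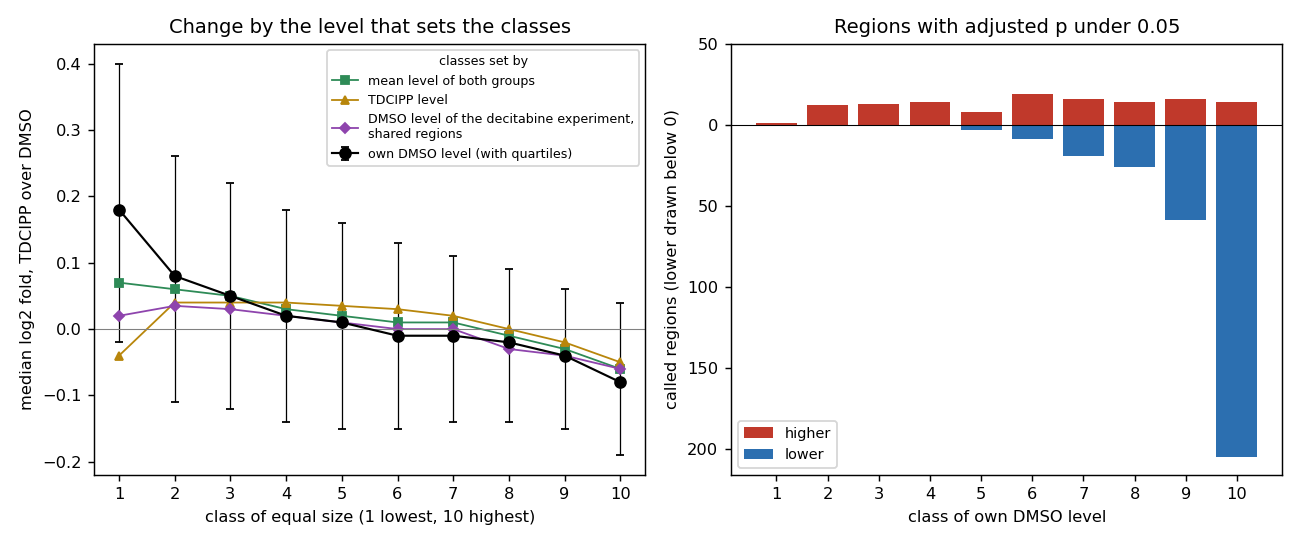
The left panel plots the median log2 fold (TDCIPP over DMSO) in 10 classes of equal size, with a line for each level used to set the classes and bars for the quartiles of the own DMSO classes. The right panel counts called regions per own DMSO class, 205 lower and 14 higher in class 10. By mean level, not drawn there, the highest class holds 186 lower and 20 higher. Each line lies below 0 in class 10, and the lines part in class 1, between -0.04 and 0.18.

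Folds also spread more widely at low levels. The interquartile range of the fold was 0.42 in the lowest DMSO class, 0.31 in class 5 and 0.23 in class 10. The smallest absolute fold that was called was 1.17 in class 1, 0.64 in class 5 and 0.31 in class 10 of the authors' deposited table. In the authors' deposited table the adjusted p is 1 for all 9402 regions below a mean level of 5.71, among them 583 with an unadjusted p under 0.05. A single region of DMSO class 1 and 68 of class 2 reached that mean level, and as these classes end at a DMSO level of 5.46 they could reach it only with a higher TDCIPP level. No fall could therefore be called in them. In class 3 (level 5.46 to 5.77), 1252 regions reached that mean level, but only with a TDCIPP level close to the DMSO level or higher. The smallest absolute fold called in class 3 was 0.73, and its calls were 13 rises and no fall. In classes 8, 9 and 10, where every region reached that mean level, 26, 59 and 205 regions fell and 14, 16 and 14 rose. Called regions made up 6.25% of class 10, against 1.28% of the whole table. The number of rises hardly differed among classes 6 to 10, from 14 to 19, while falls went from 9 to 205. The DMSO level is part of the fold, so it also moves calls between classes. By mean level, classes 6 to 10 held 16, 20, 24, 63 and 186 falls and 12, 20, 21, 18 and 20 rises. By TDCIPP level, classes 2, 3 and 4 held 2, 6 and 10 falls and no rise, and class 10 held 165 falls and 25 rises.

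The median was lower still within much of the class of highest DMSO level. Its parts of 700 or 701 regions, by rising DMSO level, had median folds of -0.05, -0.06, -0.09, -0.11 and -0.09 in the authors' deposited table. Called falls went from 20 in the lowest of them to 99 in the highest, and called rises from 0 to 6. In the lowest part the median region had 372 DMSO and 362 TDCIPP reads, and in the highest 1618 and 1552 reads. Class 10 held 60.4% of all reads with DMSO and 59.4% with TDCIPP, a change of -1.004 percentage points. Without its called regions, the highest class by mean level had a median fold of -0.06, as with them.

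The median absolute fold of called regions was 0.68 in class 7 and 0.44 in class 10. The region with the smallest p in each class and direction is given next, and a region picked in this way need not be typical in size. On chromosome 7 (33512250 to 33513562), the only call of class 1 had 33.1 normalized reads with DMSO and 74.5 with TDCIPP (log2 fold 1.17, adjusted p = 0.000533 in the authors' deposited table). On chromosome 4 (10266101 to 10266979), a rise of class 2 had 41.4 and 88.6 reads (log2 fold 1.10, adjusted p = 0.000383 in the authors' deposited table). On an unplaced sequence (32523 to 33320), a rise of class 3 had 50.2 and 89.9 reads (log2 fold 0.84 in the authors' deposited table). These regions of low level gained between 39.7 and 47.3 reads per library. An alternate scaffold of chromosome 1 (212679 to 213746) held the rise of class 4, with 54.9 and 115 reads. In class 5, chromosome 13 (48343337 to 48346296) had 71.5 reads with DMSO and 165 with TDCIPP. In the same class, the smallest p of a fall lay on chromosome 14 (10932879 to 10934547), with 80.4 and 38.3 reads (log2 fold -1.07, adjusted p = 0.00121 in the authors' deposited table). It is the lowest DMSO class with any called fall. In the classes below it, the mean level of 5.71 leaves little or no room for a fall to be called.

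In classes 6 to 10 the named falls had folds between -0.85 and -1.07 and the named rises between 0.54 and 0.94. On chromosome 23 (23076547 to 23077129), a rise of class 6 had 103 reads with DMSO and 179.8 with TDCIPP. The fall of that class lay on an unplaced sequence (50299 to 51249) with 94.4 and 49.2 reads (log2 fold -0.94, adjusted p = 0.00118 in the authors' deposited table). In class 7, an alternate scaffold of chromosome 23 (295490 to 297701) fell from 113 to 53.8 reads (log2 fold -1.07, adjusted p = 0.00102 in the authors' deposited table). Classes 7 and 9 each took their rise from the same stretch of chromosome 19. Its region from 25737820 to 25740810 had 209 and 338 reads (log2 fold 0.69, adjusted p = 0.00011 in the authors' deposited table), and its neighbour from 25744330 to 25745719, 3519 bp away, had 132 and 252 reads. In class 8, chromosome 4 (13217198 to 13219294) rose from 151 to 240.5 reads and chromosome 2 (55669805 to 55671547) fell from 174 to 96.3 reads, with log2 folds of 0.67 and -0.85 in the authors' deposited table. Both changes passed, with adjusted p of 0.00137 and 0.000106 there. On chromosome 19 (5368451 to 5370464), the fall of class 9 went from 338 to 186 reads. In class 10, chromosome 24 (19518087 to 19519381) rose from 419 to 609 reads (log2 fold 0.54, adjusted p = 0.000335 in the authors' deposited table). In that class chromosome 10 (44994572 to 44997297) fell from 861 to 437 reads, with the smallest p of all calls named here (5.16e-14 in the authors' deposited table).

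The largest folds of the table were not calls. On chromosome 19 (18404470 to 18405192), the largest positive fold of the authors' deposited table, 1.5, came from 23.1 DMSO and 65.3 TDCIPP reads, with p = 2.43e-06 unadjusted and p = 1 adjusted. On chromosome 10 (22041499 to 22042680), the most negative fold there, -1.5, came from 35.5 and 12.6 reads and its adjusted p was also 1. Both lie below the mean level of 5.71. Of 63 regions with an absolute fold of at least 1, 53 lay below it and the other 10 were called.

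**Figure D2:**
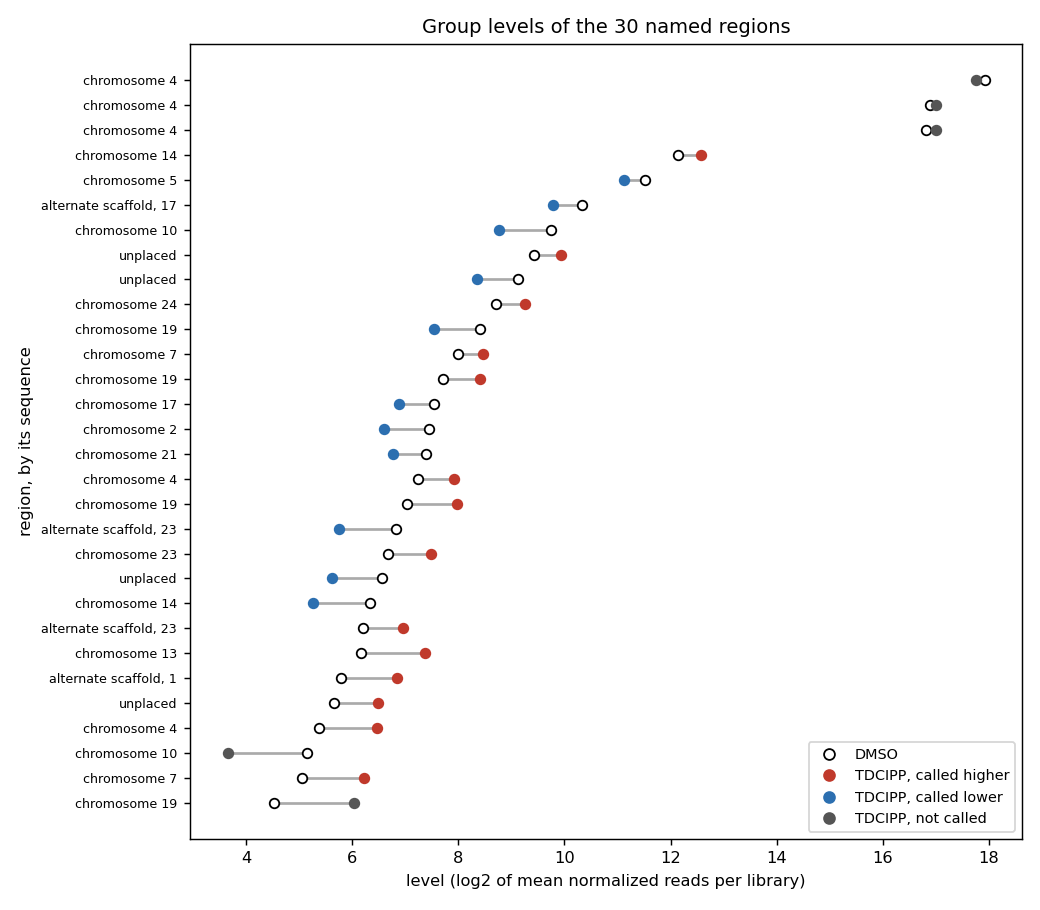
Group levels (log2 of mean normalized reads per library) of the 30 named regions, ordered by DMSO level, with open points for DMSO and filled points for TDCIPP. The points of a region lie farthest apart at the extreme folds of 1.5 and -1.5, both at low levels and not called, and the deepest region, at the other end, has a fold of -0.16.

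Width divided the regions in the same sense, up to a point. The median fold was 0.05 at widths of 500 to under 1000 bp (12512 regions), 0.01 at 1000 to under 1500 bp, -0.04 at 1500 to under 2000 bp and -0.06 at 2000 to under 3000 bp and 3000 to under 4000 bp, in the authors' deposited table. It was 0.06 at the 393 regions of 4000 bp and over. The share of regions with a fold above 0 went from 58.0% at 500 to under 1000 bp to 37.1% at 2000 to under 3000 bp and back to 60.3% at 4000 bp and over. Called falls made up 0.232% of regions of 500 to under 1000 bp, 2.78% of those of 2000 to under 3000 bp and 7.38% of those of 4000 bp and over, against 0.916% of the whole table. The widest class thus had a median above 0 and yet the highest share of called falls of the 7 classes, 29 falls beside 6 rises. Its share of called rises was also the highest, 1.53% against 0.362% of the whole table. All its 393 regions reached the mean level of 5.71, against 6643 of the 12512 regions of 500 to under 1000 bp. Median DMSO reads were 734 and 53.4, and smaller folds could be called at higher levels. The 118 regions under 500 bp had a median fold of 0.125 in the authors' deposited table, with 1 rise and no fall. The narrowest of the table measured 455 bp and the widest 64599 bp.

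Wide regions collect more reads, with Pearson r = 0.513 between the log2 of the width and the DMSO level over 35040 regions. The regions were therefore also divided into 3 groups of equal size by mean level. In the upper group, the median fold was 0.01 at 500 to under 1000 bp, -0.06 at 1500 to under 2000 bp and -0.07 at 2000 to under 4000 bp, and 0.07 at 4000 bp and over. In the lower group it was 0.08 at 500 to under 1000 bp, 0.04 at 1000 to under 1500 bp and -0.01 at 1500 to under 2000 bp. At 2000 to under 3000 bp the lower group had 0.00 (153 regions). In the middle group the median was 0.05 at 500 to under 1000 bp, 0.02 at 1000 to under 1500 bp and -0.01 at 1500 to under 2000 bp. It was -0.04 at 2000 to under 3000 bp and 0.05 at 3000 to under 4000 bp (101 regions) there. Medians thus went down with width from 500 to under 2000 bp in each group, and differed between groups beyond that. The widest class lay 0.065 below the narrowest over all regions, but 0.06 above it in the upper group, where the narrowest class has 33 regions. Called falls in the upper group made up 1.06% at 500 to under 1000 bp and 8.03% at 4000 bp and over, and rises 0.923% and 1.66%. Over all widths, falls made up 2.38% and rises 0.596% of the 10231 regions of that group on assembled chromosomes. Median DMSO reads of these 2 width classes were 198 and 826, so the level still differed with width inside that group. Per kb of width, the DMSO level gave a difference of -0.22 between its highest and lowest class.

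The widest regions differed by place. Chromosome 4 held 173 of the 393 regions of 4000 bp and over, none of them called, with a median fold of 0.05 and quartiles of -0.05 and 0.13 in the authors' deposited table. The other 220 had a median of 0.07 with quartiles of -0.18 and 0.22, and 29 of them fell (13.2%) while 6 rose (2.73%), against 0.916% and 0.362% of the whole table. At an unadjusted p under 0.05, 34 of the 220 were higher and 45 lower in the authors' deposited table, against 10 and 1 of the 173. Their median DMSO reads were 729 on chromosome 4 and 742 elsewhere. Outside chromosome 4, the widest regions were thus spread to both sides of 0. Those of chromosome 4 lay closer together, with a median slightly above 0 and 32.9% of folds below it.

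The extremes of width among the calls show both sides. On chromosome 5 (43142560 to 43184939), the widest fall covered 42380 bp and went from 2937 normalized reads with DMSO to 2226 with TDCIPP (log2 fold -0.40, adjusted p = 0.0114 in the authors' deposited table). On chromosome 14 (20093736 to 20101097), the widest rise covered 7362 bp and went from 4545 to 6123 reads (log2 fold 0.43, adjusted p = 0.0396 in the authors' deposited table). The narrowest fall, of 579 bp on chromosome 21 (3935908 to 3936486), had 169 and 109 reads (log2 fold -0.63 in the authors' deposited table). The narrowest rise, of 479 bp on an alternate scaffold of chromosome 23 (72089 to 72567), had 73.5 and 124 reads (log2 fold 0.75 in the authors' deposited table). Of all falls, 51.7% were 2000 bp or wider, against 22.0% of rises and 17.9% of the 25638 regions at or above the mean level of 5.71. These sets were not matched for level, with a median of 523 DMSO reads at falls and 115.4 at the 25638 regions. The median width was 2039 bp at falls, 1863.5 bp over all of DMSO class 10 and 2676 bp in the highest of its 5 parts.

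**Figure D3:**
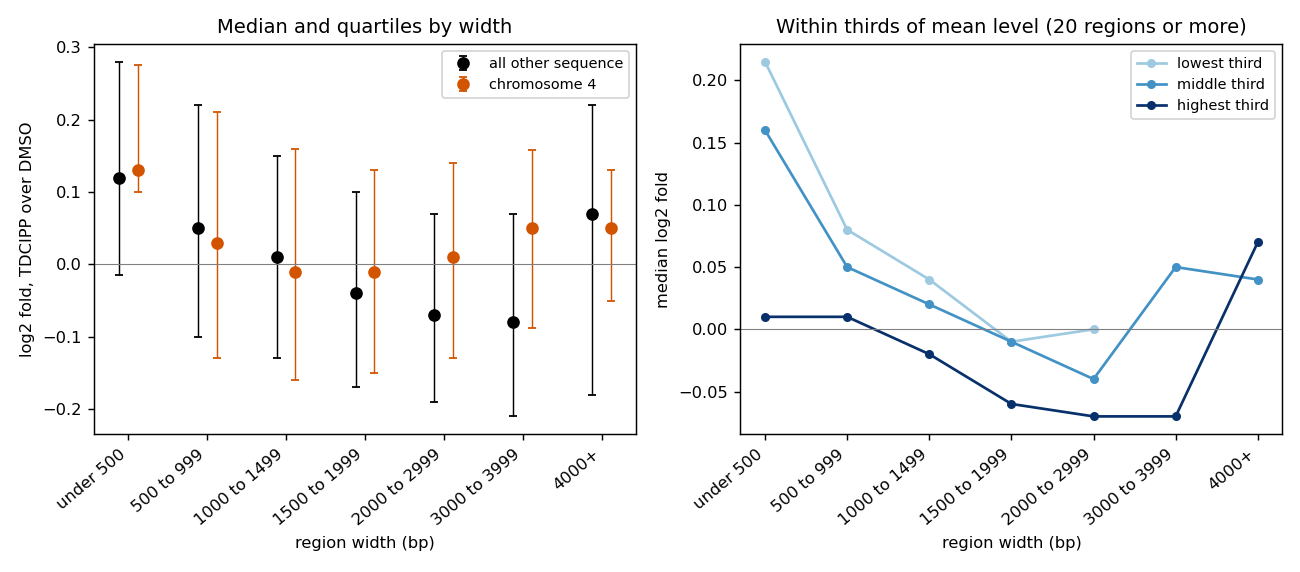
The left panel plots the median log2 fold with its quartiles by region width in bp, for chromosome 4 and for all other sequence, and the right panel plots medians by width within 3 groups of mean level, for classes of 20 regions or more. Away from chromosome 4 the medians go down to -0.08 at 3000 to under 4000 bp and stand at 0.07 in the widest class.

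Spacing gave smaller differences between medians. Each region's gap to the nearest other region on the same sequence was taken from edge to edge, with a median of 10309 bp. The median fold was 0.01 at gaps under 1000 bp, -0.01 at 1000 to under 10000 bp, 0.03 at 20000 to under 50000 bp, 0.05 at 50000 to under 100000 bp and 0.06 at 100000 bp and over, in the authors' deposited table. Isolated regions (3539 with a gap of 50000 bp and over) lay 0.06 above crowded ones (2649 with a gap under 2000 bp). Isolated regions also had a lower DMSO level, with a median of 63.6 reads against 113. Within the lower, middle and upper groups of mean level, isolated regions lay 0.04, 0.05 and 0.04 above crowded ones. The difference was smaller in each group but kept its sign.

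Calls were divided by spacing more clearly than medians were. Of 3539 isolated regions, 20 rose and 5 fell, and of 2649 crowded regions, 11 rose and 90 fell. Falls thus made up 3.40% of crowded regions and 0.141% of isolated ones, against 0.916% of the whole table. Rises made up 0.415% and 0.565%, against 0.362%. Crowded regions have a close neighbour by definition, and close neighbours had similar folds (below), so falls among them need not be separate places. With calls of the same direction within 50 kb counted once, the 321 falls of the whole table made 215 places and the 127 rises 119. This count was not made by spacing class. The mean level of 5.71, below which nothing was called, was reached by 2136 of the crowded and 2236 of the isolated regions. The median gap was 4019 bp for falls and 10835 bp for rises. Over all regions of DMSO class 10, which held 205 of the falls, it was 5969 bp. Within the upper group of mean level, falls made up 7.26% of regions with a gap under 1000 bp and 3.68% at 2000 to under 5000 bp. At 20000 to under 50000 bp they made up 0.94%. Over all gaps, falls made up 2.38% of the 10231 regions of that group on assembled chromosomes. Median DMSO reads of these 3 gap classes were 312, 251 and 202, so the level still differed with the gap inside that group. Crowded regions of 2000 bp and over had a median fold of 0.05 in the authors' deposited table, while 46 of these 489 regions fell (9.41%) and 5 rose (1.02%). They had a median width of 2947 bp and a median of 380 DMSO reads. As with the widest regions, calls and median pointed to opposite sides there.

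The most isolated calls lay far from any other region. On chromosome 7 (47538193 to 47540791), a rise stood 184484 bp from its nearest neighbour and went from 254 to 355 normalized reads (log2 fold 0.49, adjusted p = 0.00573 in the authors' deposited table). On chromosome 17 (22241518 to 22243125), a fall stood 136070 bp from its nearest neighbour and went from 186 to 119 reads (log2 fold -0.65, adjusted p = 0.00439 in the authors' deposited table). The 329 regions that were alone on their sequence had a median fold of 0.04 in the authors' deposited table and no call, with 1.28% called over the whole table.

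Neighbouring regions tended to have similar folds, and the likeness fell with distance. Over 33778 pairs of regions next to each other on a sequence, the folds had Pearson r = 0.178 and Spearman rho = 0.182. At gaps under 1000 bp r was 0.591 (416 pairs), at 1000 to under 2000 bp 0.427, at 2000 to under 5000 bp 0.370 and at 5000 to under 10000 bp 0.273. It was 0.121 at 20000 to under 50000 bp and 0.031 at 100000 bp and over (3697 pairs). Both folds of a pair had the same sign in 70.9% of pairs under 1000 bp apart and in 53.1% of those 100000 bp or more apart. Folds of close neighbours were thus alike and those of distant ones barely so. The pairs share all libraries, and a correlation across regions describes these libraries.

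The likeness of neighbours was also there when level and calls were set aside. With folds centred within 20 classes of mean level, r was 0.172 over all pairs and 0.596 under 1000 bp. Without pairs that hold a called region, r was 0.153. Where both regions had at least the median mean level, r was 0.354. By number of steps, r was 0.109 for the second next region, 0.078 for the third next, 0.044 for the fifth and 0.03 for the tenth, the last at a median distance of 379436 bp. On each of the 25 chromosomes r for next neighbours was above 0, from 0.106 on chromosome 13 to 0.24 on chromosome 25.

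**Figure D4:**
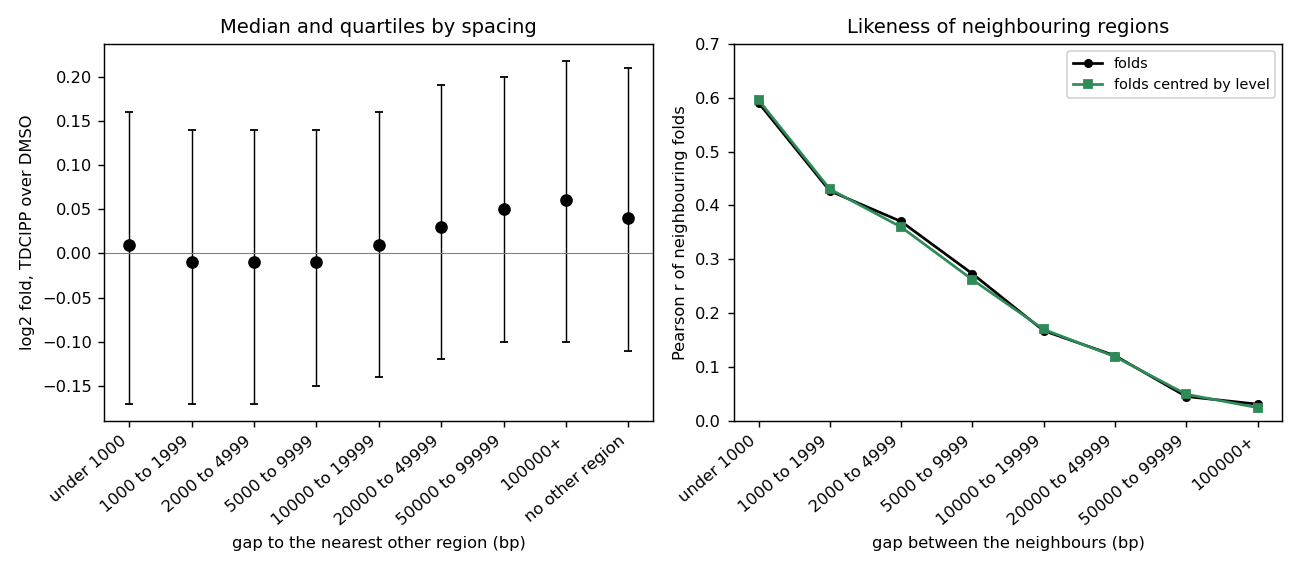
The left panel plots the median log2 fold with its quartiles by the gap in bp to the nearest other region. The right panel plots Pearson r between the folds of neighbouring regions by the gap between them, which falls from 0.591 under 1000 bp to 0.031 at 100000 bp and over, with and without centring by level.

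By sequence class the medians were close together. The 29879 regions on assembled chromosomes had a median fold of 0.01, the 4403 on 850 alternate scaffolds 0.00 and the 758 on 387 unplaced sequences 0.03, in the authors' deposited table. Alternate scaffolds hold further versions of stretches that are also on a chromosome, so reads can match in several places, and the sources used here do not say how such reads were counted. Called regions made up 1.28% on assembled chromosomes, 1.2% on alternate scaffolds and 1.58% on unplaced sequence, against 1.28% of the whole table. These shares lie near that of the whole table. Of the calls on alternate scaffolds, 11 were higher (0.25% of the regions there) and 42 lower (0.954%). Of those on unplaced sequence, 5 were higher (0.66%) and 7 lower (0.923%). Over the whole table, 0.362% were higher and 0.916% lower, so the shares of falls lie near that of the whole table. The 42 falls lay on 25 scaffolds, and 2 scaffolds of chromosome 17 held 9 falls among 25 regions and 7 among 13.

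The level also divided alternate scaffolds. Their highest class of mean level had a median fold of -0.11 (245 regions) and their lowest 0.08 (566 regions), against -0.06 and 0.07 on assembled chromosomes. On unplaced sequence the highest class had 0.03 (143 regions) and the lowest 0.02 (67 regions). In the coarser division into 3 groups of mean level, unplaced sequence had 0.02 in the upper group (325 regions) and 0.04 in the lower (213 regions), so the order of its ends turned with the division. Unplaced sequence held 3.80% of all DMSO reads and 3.93% of TDCIPP reads.

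The median absolute fold of called regions was 0.52 on assembled chromosomes, 0.49 on alternate scaffolds and 0.655 on unplaced sequence (12 calls), and these differences were not tested. On an alternate scaffold of chromosome 17 (379746 to 380472), the fall with the smallest p of that class went from 1296 to 879 reads (log2 fold -0.56, adjusted p = 1.31e-05 in the authors' deposited table). On an unplaced sequence (20522 to 21695), the fall with the smallest p went from 560 to 329 reads (log2 fold -0.77, adjusted p = 6.67e-07 in the authors' deposited table). On unplaced sequence (31546 to 36193), the rise with the smallest p went from 690 to 976 reads (log2 fold 0.50, adjusted p = 0.00864 in the authors' deposited table). It covered 4648 bp and lay 1088 bp from the next region.

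Among assembled chromosomes the median fold ranged from -0.03 (chromosome 19) to 0.04 (chromosome 18), by the folds of the authors' deposited table. Every chromosome's quartiles spanned 0. The shares of called falls differed more than the medians, from 0% on chromosome 18 to 3.18% on chromosome 25, against 0.916% of the whole table. Chromosome 25 nevertheless had a median fold of 0.02 in the authors' deposited table. Its share of all reads was 3.67% with DMSO and 3.24% with TDCIPP, and that of chromosome 7 was 6.15% and 5.71%. The highest class of mean level had a lower median fold than the lowest on 24 of 25 chromosomes, with differences down to -0.23 on chromosome 19. The exception by mean level was chromosome 4, with 0.03 more in its highest class (388 regions) than in its lowest (247 regions). The nearest to it was chromosome 18, at -0.055. With classes by the own DMSO level, each of the 25 chromosomes had a negative difference, from -0.115 on chromosome 4 to -0.40 on chromosome 25. The own DMSO level is part of the fold, which by itself pulls these differences below 0. Their signs therefore add nothing to those by mean level.

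Chromosome 4 held the deepest regions of the table. The 10 regions with the highest DMSO level all lay on it, held 13.0% of all DMSO reads and 13.5% of TDCIPP reads, and none of them was called. The deepest (67567489 to 67587215) had 248003 normalized reads per library with DMSO and 221969 with TDCIPP (adjusted p = 0.703 in the authors' deposited table). The next (30951244 to 30977386) had 121450 and 131984 reads (adjusted p = 0.766 in the authors' deposited table). The one after it (69461963 to 69484230) had 115698 and 131984 reads (adjusted p = 0.609 in the authors' deposited table). These 3 were 19727 to 26143 bp wide and differed in both directions without passing the test. No repeat was assigned here, and how reads matching several places were counted is unknown, so these depths need not reflect accessibility alone. In DMSO class 10, the 380 regions of chromosome 4 had a median fold of 0.03 with 1 fall (0.263%) and no rise, in the authors' deposited table. The 3124 on all other sequence had -0.09 there, with 204 falls (6.53%) and 14 rises (0.448%). Falls made up 5.85% and rises 0.4% of all of class 10, against 0.916% and 0.362% of the whole table. Summed, the class 10 reads of chromosome 4 changed by 0.01 on the log2 scale and those of all other sequence by -0.09.

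**Figure D5:**
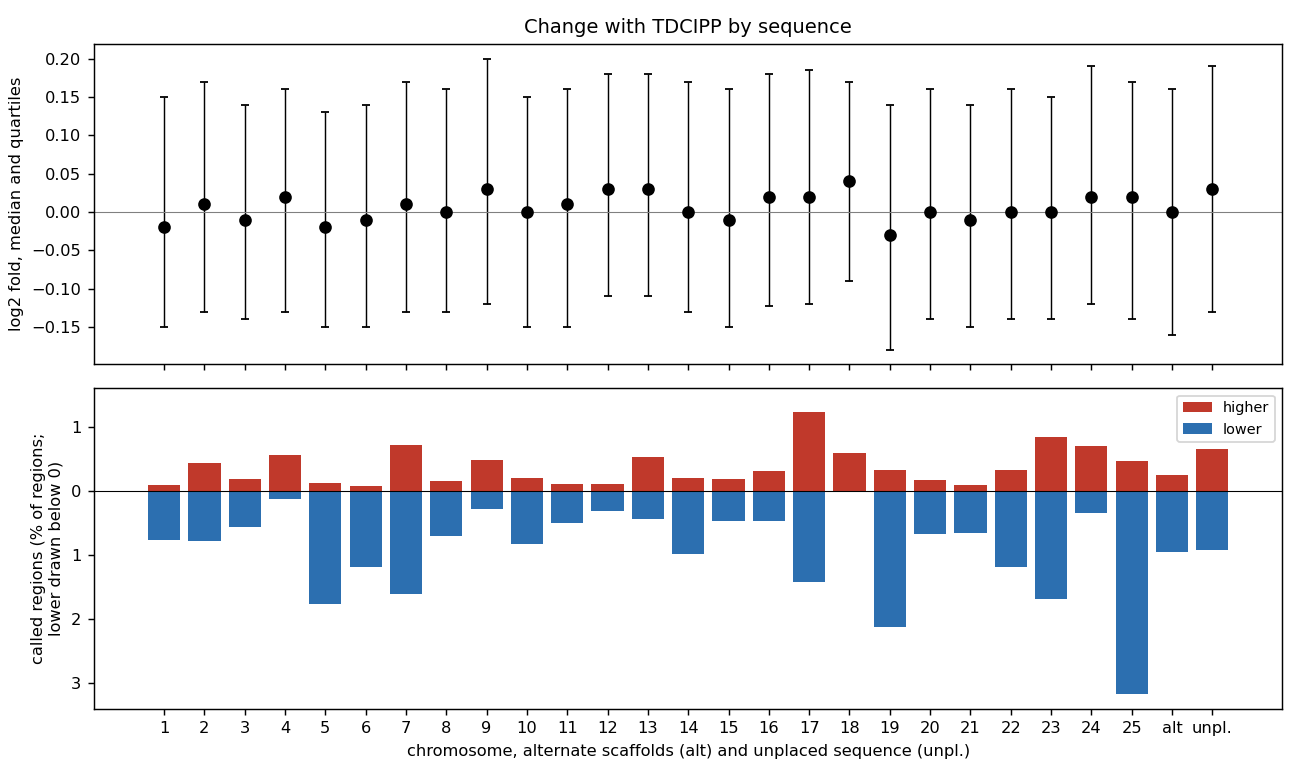
The upper panel plots the median log2 fold with its quartiles for each chromosome, alternate scaffolds and unplaced sequence, and the lower panel the percent of regions called higher or lower. Medians stay between -0.03 and 0.04, while called falls range from 0% on chromosome 18 to 3.18% on chromosome 25.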

How the data were processed

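The deposited comparison of 3 TDCIPP and 3 DMSO libraries was used whole. Per the submitters' processing notes, Bowtie2, Picard, MACS2, deepTools and DiffBind were used on GRCz11. The sources used here give no versions, scaling of libraries, shift for the Tn5 cut or treatment of duplicates and multiple matches. Per the file headers, the authors deposited log2 levels per group, a log2 fold, and p-values unadjusted and adjusted (FDR). The fold equalled the difference of the levels within 0.01. Normalized reads in the regions are known only as group means, and sequencing depth is not among the deposited values.

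Levels were turned back into reads as powers of 2. Classes of level, width, gap and sequence were formed and their medians, quartiles and calls computed in Python 3.11.15 with pandas 2.3.3 and SciPy 1.17.1, after a test on simulated data. A region counted as present in both tables if at least 1 base overlapped. No test between classes was made. One start written in exponent form was read as a whole number.

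Named regions are the call with the smallest p per DMSO class and direction, and per direction on alternate and unplaced sequence, the widest, narrowest and most isolated calls, the 3 highest DMSO levels and the 2 extreme folds. This rule, the classes and the comparison itself were chosen with earlier results of these data known. Alternatives were other thresholds, levels, class limits and subsets. No gene, promoter or repeat was assigned, since no GRCz11 annotation was used here.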

Additional observations from a re-analysis of the deposited data

How the results depend on the processing

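No paired analysis was possible because the table holds no values of single libraries, and leaving out libraries could not be run for the same reason. The 448 calls became 193 at an adjusted p under 0.01, 700 at 0.1 and 10 with an absolute log2 fold of at least 1, and stayed within 1.5 times with recomputed adjustment, assembled chromosomes only or the median mean level as minimum. The share of calls higher with TDCIPP (28.3%, 95% Clopper-Pearson interval 24.2 to 32.8, counting error only) was 18.1% at 0.01, 34.9% at 0.1, 48.0% at an unadjusted p under 0.05, 22.9% at the median mean level and above and 35.6% with calls within 50 kb joined. The median fold of 0.01 became -0.02 at the median mean level and above and -0.0287 as a mean weighted by reads. The difference of -0.26 between the highest and lowest DMSO class was -0.13 by mean level, -0.01 by TDCIPP level, -0.08 by the other controls (24956 shared regions only, where the own DMSO level gave medians of 0.14 and -0.09), -0.22 per kb, -0.19 with 5 classes, -0.34 with 20 and -0.24 without called regions. The step from -0.26 to -0.01 follows from which group's values set the classes. The width difference of -0.065 turned to 0.06 in the upper of 3 groups of mean level and 0.02 at the median mean level and above, and the cause was not tested. The neighbour r of 0.178 was 0.354 at the median mean level and above, 0.333 within 10 kb, 0.105 beyond and 0.153 without called regions. The change in the read share of class 10 was -1.07 points with 5 classes and -0.857 by mean level. The omission of chromosome 4 or of called regions was chosen after seeing the data, and all other alternatives were planned.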

Other observations

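Differences in reads, as opposed to folds, were also summed, and the regions named here were chosen after their values were seen. All regions with fewer reads changed by -545173 normalized reads per library in sum and all with more by 388011, a net of -157162. These sums hold only under the authors' scaling of libraries, which is unknown. Regions were divided by the sign of their own difference, so variation between libraries by itself gives sums on both sides. Its part in these sums was not tested. Called falls made up -138514 of the -545173 reads and called rises 12798 of the 388011. The largest single loss and the largest single gain were both on chromosome 4 and of about the same size, and neither was called. The gain (69955901 to 70004259, 48359 bp) went from 104998 to 131072 reads (log2 fold 0.32, adjusted p = 0.354 in the authors' deposited table). The loss is the deepest region of the table, described above. The largest loss that was called lay on chromosome 7 (5903940 to 5914183), with 23657 reads in DMSO and 17929 in TDCIPP (log2 fold -0.41, adjusted p = 0.00252 in the authors' deposited table).

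Regions in the TDCIPP table without a partner in the decitabine table, 10084 in number, had a median DMSO level of 5.62 and a median fold of 0.04, against 6.77 and 0.00 at the shared regions, in the authors' deposited table.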
